A study of Rattus norvegicus with 15 samples.

Results

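Calbindin D28k (Calb1), calretinin (Calb2) and the neuronal calcium sensors hippocalcin (Hpca), Hpcal1, Hpcal4, visinin-like 1 (Vsnl1) and neuronal calcium sensor 1 (Ncs1) were examined in neurons of the rat substantia nigra pars compacta (SNc) and ventral tegmental area (VTA). The members were all probe sets that the platform annotation assigns to any of these 7 genes, a probe set being a group of short array probes against a common transcript. This gave 10 of the 8740 probe sets other than controls, and each of the 7 genes had at least 1. The SNc group held 8 arrays, numbered 1 to 8, and the VTA group 7 arrays, numbered 1 to 6 and 8. Every array carried total RNA of rat neurons taken by laser capture microdissection, in which cells are cut out of a tissue section under the microscope. The labels name no strain, age, treatment or genotype for either region, and do not say how neurons were recognised or how many animals gave them, so the p-values reflect only how far these arrays scatter, and that scatter can be technical.

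Calbindin, calretinin and the sensors belong to the EF-hand proteins, which hold calcium ions in a helix-loop-helix fold. Calbindin and calretinin are mainly buffers: they take up calcium that enters during activity and shape how far and how long a signal lasts. Neuronal calcium sensors instead change shape on binding calcium, and most of them carry a myristoyl group that moves them to membranes, where they act on receptors, channels and enzymes. In the midbrain, calbindin is known as a marker of the dopamine neurons of the VTA and the dorsal tier of the substantia nigra, which are lost less in Parkinson's disease than the calbindin-poor neurons of the ventral tier. Dopamine neurons of both regions can hold calretinin, as can some GABA neurons of the midbrain.

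The members were 7 of 4736 genes that a probe set names alone. Of the 10 probe sets, 6 were bright enough to be tested, and 1 of the 6 passed the threshold, an adjusted p of 0.05 in limma over 5244 probe sets. It was that of Calb1, which was higher in VTA. Over all probe sets tested, 1.98% passed in either direction and 1.14% as higher in VTA. Calb2 was 1.53-fold higher in SNc by its mean but missed the threshold, and Hpca, Hpcal1, Hpcal4 and Vsnl1 missed it too. The count of 1 in 6 is small, and the genes were chosen with earlier results of these arrays known, so it is read as a description.

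The captures held strong dopamine neuron signal in both regions. Tyrosine hydroxylase (Th), the first enzyme of dopamine synthesis, ranged from 5893 to 7355 in SNc and from 5967 to 8171 in VTA, and all 9 dopamine neuron markers on the array were above the filter. Of the 9, 1 passed, Gch1, an enzyme of tetrahydrobiopterin synthesis: it was higher in VTA (463 in SNc, 1153 in VTA, log2 difference -1.34, adjusted p = 0.00163 in limma). Their summed signal ranged from 27024.5 to 34312 in SNc and from 23466 to 34025 in VTA. Among the other cell types, the summed signal of 4 GABA neuron markers was 909 to 1848 in SNc and 551 to 1022 in VTA, and 2 of the 4, Gad1 and Pvalb, passed as higher in SNc. The sum of 5 oligodendrocyte markers was 5269 to 9490 in SNc and 7686 to 11315 in VTA, and that of 6 astrocyte markers 2582 to 3649 and 2398 to 4953, with 0 of the 5 and 0 of the 5 tested passing in limma. Slc17a7, the only glutamate neuron marker with a probe set, lay between 1.59 and 7.35. The others listed, Slc17a6 and Slc17a8, had none, so the content of glutamate neurons cannot be judged here. Of 5 microglia markers, 4 were below the filter: Aif1, Itgam, Csf1r and C1qb. The sum over the 5 microglia markers was 78.3 to 124 in SNc and 69.1 to 131 in VTA, and that over 4 vessel and blood markers 176 to 406 and 154 to 1293. In such captures, fewer cells of a type and less RNA per cell cannot be told apart. By median correlation with the rest, VTA 5 (0.910) and VTA 8 (0.919) stood lowest, and results without both are given where they differ.

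Calb1 (probe set M31178_g_at) separated the regions completely. Its signal on the linear scale was 818 at the lowest, 1256 at the median and 1755 at the highest of the 8 SNc arrays, against 1882, 2142 and 3342 in the 7 VTA arrays. Every VTA array therefore lay above every SNc array, a separation that 0.858% of all probe sets tested showed in either direction. The means were 1248 ± 273 (SD, n = 8) in SNc and 2440 ± 530.5 (SD, n = 7) in VTA. On the log2(intensity + 16) scale, SNc minus VTA was -0.96 (SE 0.17, 95% interval -1.31 to -0.61), or 1.95-fold higher in VTA. The difference passed in limma with an adjusted p of 0.00302 and had the rank 25 by p among the 5244. An exact two-sided permutation test of the same difference gave p = 0.000311, where the smallest possible value was 0.000155. Calb1 was chosen with earlier results of these arrays known, so these p-values are a description.

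Within each region Calb1 varied by about the same relative amount, with a coefficient of variation of 21.9% in SNc and 21.7% in VTA. The gap between the regions was narrow at its edge, between SNc 8 at 1755 and VTA 6 at 1882. The upper VTA arrays, VTA 1, VTA 2 and VTA 8, lay between 2696 and 3342, and the other 4 between 1882 and 2142. Without VTA 5 and VTA 8, the difference still passed, as it did on leaving out any array in turn, when it lay between -1.03 and -0.88. Beside Calb1, the summed oligodendrocyte markers also had the higher median in VTA, 9032 against 7446, and the summed GABA markers the lower one, 676 against 1417. Their part in the Calb1 difference was not tested. A second probe set whose identifier differs from that of Calb1 by its suffix alone, M31178_at, is unnamed in the platform annotation. It was far dimmer, at 36.0 ± 8.59 in SNc and 39.5 ± 6.15 in VTA, and differed by -0.10 (SE 0.13, adjusted p = 0.758 in limma).

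Calb2 (X66974_at) lay in the opposite direction, with broad overlap. Its signal was 709 at the lowest, 1343 at the median and 2393 at the highest in SNc, and 630, 806 and 1377 in VTA. Of the 8 SNc arrays, 7 were above the VTA median, and 4 were above every VTA array. SNc 5 and SNc 7, at 709 and 919, were the low SNc arrays, and VTA 4, at 1377, the high VTA array. The means were 1362 ± 497 (SD, n = 8) and 861 ± 244 (SD, n = 7), and the log2 difference was 0.61 (SE 0.22, 95% interval 0.16 to 1.06). The adjusted p in limma was 0.162, so the difference did not pass over all probe sets. Its exact two-sided permutation p was 0.0196 before any adjustment. As Calb2 too was chosen with earlier results of these arrays known, this p is a description. Of all probe sets tested, 15.4% had an unadjusted limma p under 0.05, and 2 of the 6 members, Calb1 and Calb2, were among them. Beside this difference, Gad1, which makes GABA, had a mean of 754 ± 180 in SNc against 279 ± 123 for VTA, a log2 difference of 1.45 that passed in limma (adjusted p = 0.00154). The part of GABA neurons in the Calb2 signal was not tested. Gad2, the other GABA-making enzyme, ranged from 12.9 to 118 and from 31.1 to 75.6 and did not pass (adjusted p = 0.723 in limma).

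**Figure D1:**
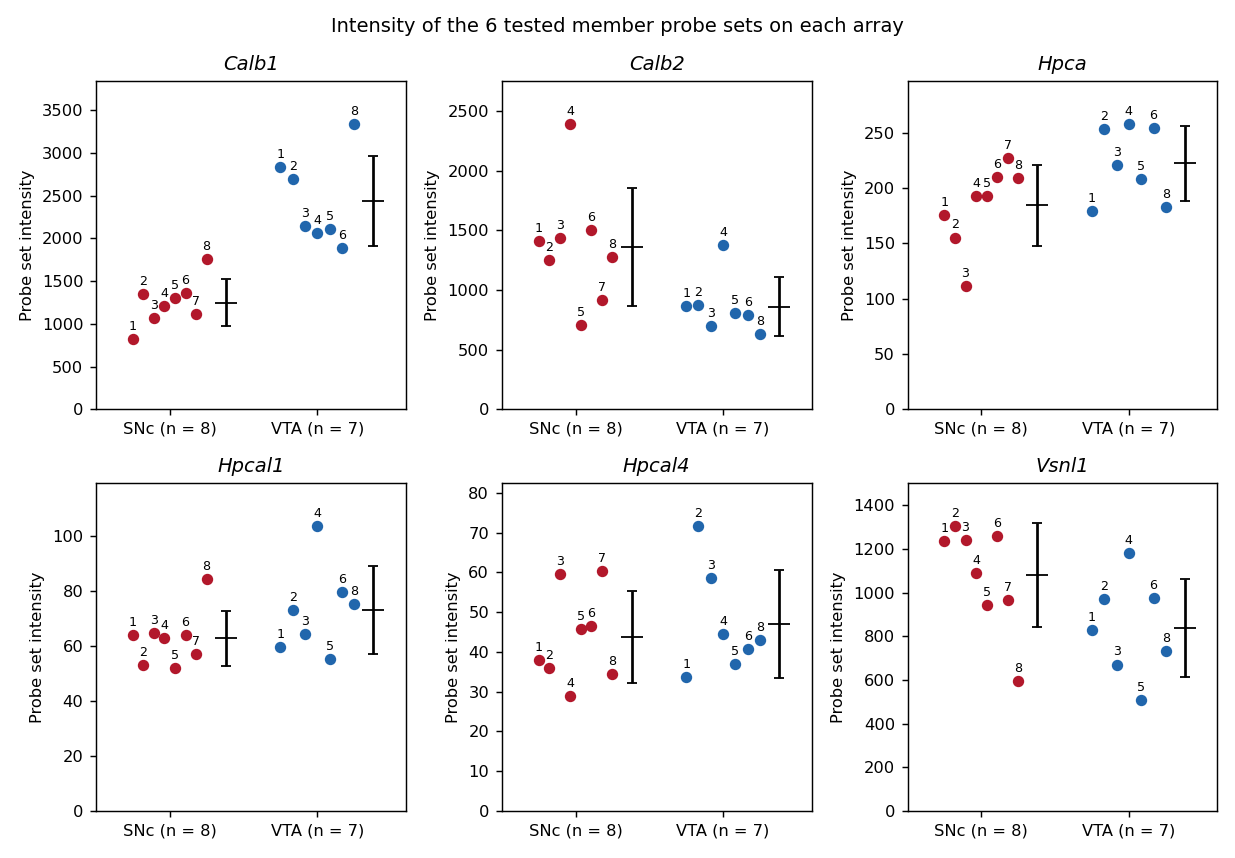
Probe set intensity (linear scale, from 0) of the 6 tested members on each array, labelled by replicate number, with the mean and SD of 8 SNc and 7 VTA arrays beside the points. Calb1 is the only member whose regions do not overlap, and for Calb2 and Vsnl1 4 SNc arrays lie above every VTA array.

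The ratio of Calb1 to Calb2 was formed on each array from intensity + 16. Since probe sets differ in brightness for the same amount of RNA, the ratio has no absolute meaning and is compared between arrays only. It was 0.507 at the lowest, 0.993 at the median and 1.83 at the highest in SNc, and 1.49, 3.04 and 5.20 in VTA. A single crossing kept the regions from separating: VTA 4, at 1.49, lay below SNc 5, at 1.83, while the other 6 VTA arrays lay above all SNc arrays. VTA 4 was the VTA array with the highest Calb2 and SNc 5 the SNc array with the lowest. On the log2 scale the ratio was -0.08 ± 0.63 (SD, n = 8) in SNc and 1.498 ± 0.54 (SD, n = 7) in VTA, a difference of -1.57 (SE 0.30, 95% interval -2.23 to -0.92). The ratio was thus 2.98-fold higher in VTA, with an interval of 1.89 to 4.70. No test is given for it, because both of its genes were chosen with their regional difference known. Leaving out any array in turn gave differences between -1.73 and -1.43.

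**Figure D2:**
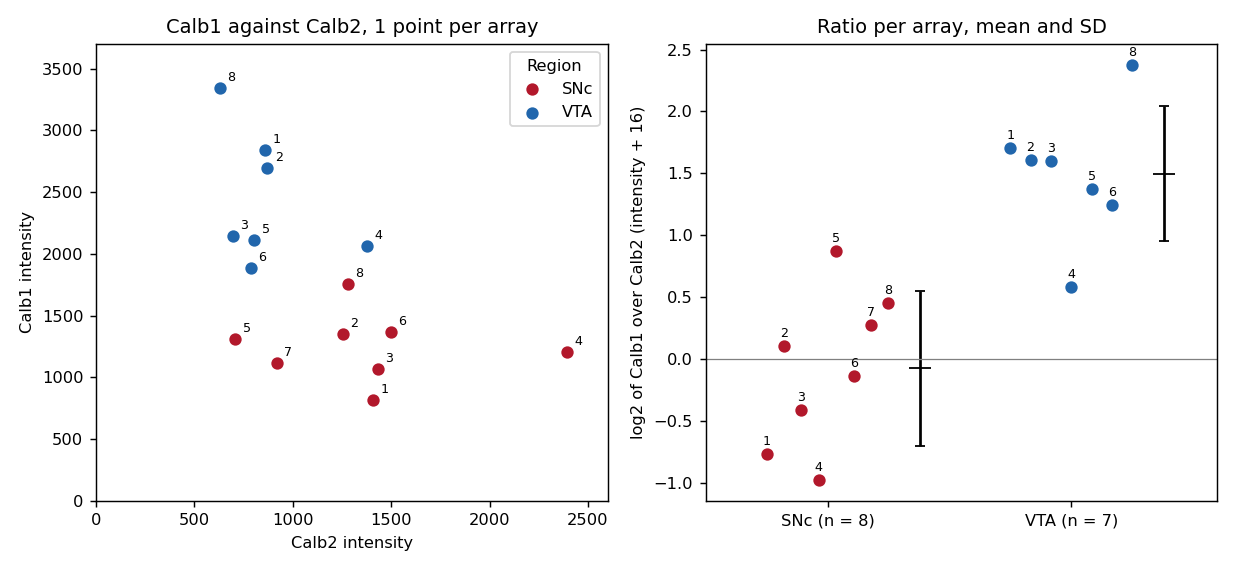
Left, Calb1 against Calb2 intensity, 1 point per array, labelled by replicate number; right, log2 of Calb1 over Calb2 (intensity + 16) per array with mean and SD (8 SNc and 7 VTA arrays). The VTA arrays lie above all SNc arrays in Calb1, and VTA 4 is the only VTA array whose ratio falls below that of an SNc array.

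Set against Th or the mean of the dopamine markers on the same array, the opposite directions of the buffers stayed. This step was chosen after the values were seen. The log2 ratio of Calb1 to Th was -2.42 ± 0.36 in SNc and -1.57 ± 0.31 in VTA, a difference of -0.84 (SE 0.17). For Calb2 over Th it was -2.34 ± 0.46 and -3.07 ± 0.37, a difference of 0.73 (SE 0.22). Against the mean log2 signal of all 9 dopamine markers, the differences were -0.79 (SE 0.13) for Calb1 and 0.78 (SE 0.27) for Calb2. Without Gch1, they were -0.94 (SE 0.14) and 0.64 (SE 0.26). The markers themselves went both ways: Th differed by -0.12 (SE 0.12) and Slc6a3, the dopamine transporter, by 0.34 (SE 0.13), and neither passed in limma. The size of these differences therefore depends on the marker chosen. Slc6a3 went the same way as Calb2 (log2 difference 0.61), so against it the Calb2 difference would be smaller and that of Calb1 larger. No ratio to Slc6a3 was formed, and whether the Calb2 direction would hold against it was not tested.

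Hippocalcin and its closest relatives were measured at lower signals and did not pass. Hpca (D12573_at), a sensor of hippocampal neurons known for its part in the slow afterhyperpolarization and in AMPA receptor uptake, was 111 at the lowest, 193 at the median and 227 at the highest in SNc. In VTA it was 179, 221 and 258. The regions overlapped, with 3 VTA arrays above every SNc array and 3 SNc arrays below every VTA array. The log2 difference was -0.26 (SE 0.15, 95% interval -0.58 to 0.05, adjusted p = 0.419 in limma), which leaves room for a 1.49-fold higher level in VTA.

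Hpcal1 (D13126_at), also called VILIP-3, was dimmer still. It was 52.2, 63.5 and 84.4 in SNc and 55.4, 73.1 and 104 in VTA (lowest, median and highest), with a log2 difference of -0.17 (SE 0.14, 95% interval -0.45 to 0.12, adjusted p = 0.589 in limma). VTA 4 was the only array above the SNc range, and SNc 8 was the highest SNc array.

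Hpcal4, a relative of visinin-like 1, had 3 probe sets, all near the lower end of the signal range. The tested one, D13125_at, was 28.8, 41.8 and 60.3 in SNc and 33.6, 43.0 and 71.8 in VTA. Its log2 difference of -0.08 (SE 0.16, 95% interval -0.40 to 0.25, adjusted p = 0.866 in limma) turned to 0.01 after quantile normalization and to 0.02 after median centring, so no direction is given. The other 2 were below the filter, which lay at a signal of about 26.3. D14819_g_at ranged from 5.52 to 37.99 in SNc and 11.8 to 49.0 in VTA, and D14819_at from 11.4 to 29.6 and 12.8 to 27.5. In a fit without the filter, they differed by -0.27 (SE 0.22) and -0.12 (SE 0.12), and neither passed (adjusted p = 0.642 and 0.747).

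Vsnl1 (D10666_at), or VILIP-1, was the brightest of the sensor probe sets. It acts on adenylyl cyclase signalling and on the traffic of nicotinic receptors, and is widely present in neurons. Its signal was 595 at the lowest, 1163 at the median and 1308 at the highest in SNc, and 508, 830 and 1183 in VTA. As with Calb2, 4 SNc arrays were above every VTA array and 7 were above the VTA median, with SNc 8, at 595, the exception. The log2 difference was 0.37 (SE 0.19, 95% interval -0.04 to 0.77, adjusted p = 0.366 in limma), and the exact two-sided permutation p was 0.0869. The interval holds both no difference and a 1.71-fold higher level in SNc. Without SNc 8 the difference was 0.48, with an adjusted p of 0.146 in limma.

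Ncs1, the sensor of the family found from yeast to mammals and known for its effects on dopamine D2 receptor desensitization and phosphatidylinositol 4-kinase beta, was not measured well enough to compare. Both of its probe sets were left out as dim. The brighter, rc_AI136914_at, was 7.61 at the lowest, 15.1 at the median and 30.5 at the highest in SNc and 9.27, 15.7 and 33.5 in VTA. L27421_at was lower still, at 1.41, 4.39 and 14.0 in SNc and 0.795, 1.84 and 20.8 in VTA. VTA 5, at 20.8, stood far above the other VTA arrays, which lay at 3.02 or less. Without the filter, these differed by -0.07 (SE 0.15) and 0.17 (SE 0.18), and did not pass (adjusted p = 0.89 and 0.741 in limma). A dim probe set on this array does not show that the gene is little expressed, since probes differ in how well they bind.

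**Figure D3:**
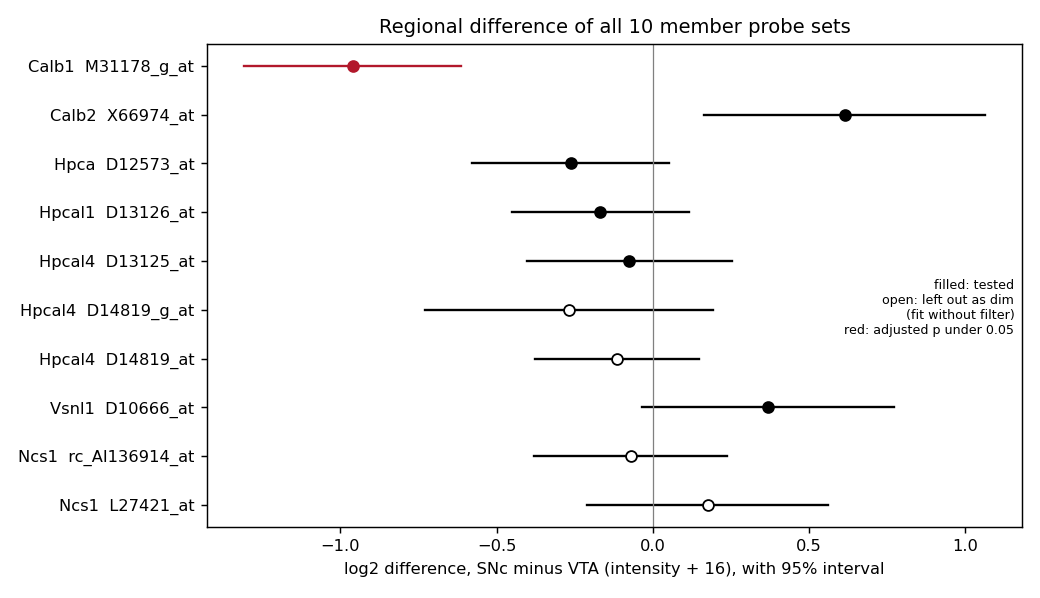
Log2 difference, SNc minus VTA, of all 10 member probe sets on the log2(intensity + 16) scale, with 95% intervals from limma; open points are the 4 probe sets left out as dim, from the fit without the filter. Calb1 at -0.96 is the only one past the threshold, and the interval of Calb2, 0.16 to 1.06, lies above 0 though its adjusted p is 0.162.

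Members were also compared with each other across arrays, after subtracting each region's mean so that the regional difference played no part. The points share the arrays, and with them each array's scaling and RNA. Among the 15 pairs of the 6 tested probe sets, 0 passed after adjustment for the 15 pairs (within-region permutation, two-sided, 15 arrays), and 0 had an unadjusted p under 0.05. For Calb1 and Calb2, Pearson's r was -0.20 (permutation p = 0.503, adjusted p = 0.943) and Spearman's rho -0.14 (permutation p = 0.616, adjusted p = 0.84). Without SNc 1 and SNc 8, the arrays farthest from the Calb1 median, r was -0.21. Over all 15 arrays, the largest r was that of Calb2 and Hpcal1, 0.47 (permutation p = 0.0693, adjusted p = 0.713), with a rho of 0.34 (permutation p = 0.197, adjusted p = 0.741) and an r of 0.52 without SNc 4 and SNc 5. For Calb2 and Vsnl1, both with higher means in SNc, r was 0.40 (permutation p = 0.153, adjusted p = 0.713), rho 0.51 (permutation p = 0.0527, adjusted p = 0.741), and r without SNc 4 and SNc 5 0.50. For Hpcal1 and Vsnl1, r was 0.20 (permutation p = 0.493, adjusted p = 0.943) and rho 0.35 (permutation p = 0.237, adjusted p = 0.741), and r was 0.64 without VTA 4 and SNc 8. Within SNc its r was -0.61, and within VTA 0.83.

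The genes whose deviations over the 15 arrays were most like those of Calb1 were Rpn1, a subunit of the oligosaccharyltransferase (r = 0.86, rho = 0.77), Ywhaq, the 14-3-3 theta protein (r = 0.80, rho = 0.76), and Polr1d, a subunit shared by RNA polymerases I and III (r = 0.78, rho = 0.66). They were the highest of 3215 genes compared, so the values are a description with no test. Without SNc 1 and SNc 8, r was 0.80, 0.69 and 0.56. Unlike Calb1, these genes had similar means in both regions, with log2 differences of 0.02, 0.12 and -0.11 (SE 0.12, 0.13 and 0.20). For Calb2 the nearest were Crmp1, a collapsin response mediator protein of growing axons (r = 0.85, rho = 0.71), Vamp2, the vesicle SNARE protein of synapses (r = 0.84, rho = 0.58), and Gtf3c1, a subunit of transcription factor IIIC (r = 0.84, rho = 0.64). Without SNc 4 and SNc 5, r was 0.74, 0.65 and 0.73. Their log2 differences were 0.37, 0.43 and 0.32 (SE 0.17, 0.16 and 0.21), and none of these 3 passed in limma (adjusted p = 0.296, 0.193 and 0.493).

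Other genes of calcium binding and calcium response were taken from 4 lists of 88 genes in all, of which 52 were tested, each by the probe set with the highest mean on the log2(intensity + 16) scale. Of the 52, 3 passed as higher in SNc and 0 as higher in VTA, against 2.17% of all 3221 genes tested in either direction. These were Pvalb, Itpr1 and Pi4ka. Taking the probe set with the highest mean on the linear scale instead, a choice made after the values were seen, changed it for Nrgn and S100a1 and gave 4 of 52, with Nrgn as the fourth. Without SNc 3, SNc 4 or VTA 5, or without VTA 5 and VTA 8 together, 1 of the 52 passed. At an unadjusted limma p under 0.05 there were 9 of 52, 6 higher in SNc and 3 higher in VTA, against 15.5% of all genes, so the lists lay close to the background. The median log2 difference was -0.03 over the 52 and -0.04 over all genes.

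The list of other EF-hand buffers and sensors had 11 tested genes, of which 1 passed, against 2.17% of all genes tested. It also held Nrgn and Pcp4, which bind calmodulin and have no EF hand, so its counts and median are not of EF-hand proteins alone. Parvalbumin (Pvalb), the buffer of fast-spiking neurons, was 102 at the lowest, 127 at the median and 239 at the highest in SNc and 8.32, 50.7 and 118 in VTA. The ranges met, with 5 SNc arrays above all VTA arrays (log2 difference 1.34, SE 0.30, adjusted p = 0.0282 in limma). The call was lost without SNc 3, SNc 4, VTA 2 or VTA 5 (adjusted p up to 0.0573). It was also lost without VTA 5 and VTA 8 together (adjusted p = 0.0734 in limma). Neurogranin (Nrgn), which holds calmodulin at rest, differed by 0.50 (SE 0.14, adjusted p = 0.0803) by its representative probe set. Its other probe set, L09119_g_at, gave 1.03 (SE 0.24) and passed (adjusted p = 0.0322). S100g, an S100 protein in spite of its old name calbindin D9k, differed by -0.18 (SE 0.14). S100a4, another S100 protein, differed by -0.24 (SE 0.24). The list's median was -0.07, with 5 genes positive and 6 negative.

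Of 14 calcium-binding proteins of the endoplasmic reticulum and secretory route, 0 passed in limma by the representative probe set. An unadjusted limma p under 0.05 was reached by 4, against 15.5% of all genes tested. Reticulocalbin 2 (Rcn2) differed by 0.48 (SE 0.17), while nucleobindin 1 (Nucb1) and reticulocalbin 3 (Rcn3) differed by -0.46 (SE 0.16) and -0.47 (SE 0.22). Calreticulin (Calr), the main calcium store protein of the list, differed by -0.37 (SE 0.17, adjusted p = 0.32). Hspa5 differed by -0.16 (SE 0.12) by its representative probe set. Another one, S63521_i_at, gave -0.46 (SE 0.15), with an unadjusted limma p of 0.00773 and an adjusted p of 0.141. The list's median was -0.17, with 11 of 14 negative, and it was -0.08 after median centring. Over all genes tested, 1792 of 3221 were negative.

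Of the 13 calmodulin-dependent effectors tested, 0 passed in limma and 0 reached an unadjusted p under 0.05 by the representative probe set. The differences ran from -0.25 to 0.26, with a median of 0.02. Camk2d, a subunit of calmodulin kinase II, Eef2k, a kinase that slows protein synthesis, and Camkv, a kinase-like vesicle protein, came first at 0.26 (SE 0.17), -0.25 (SE 0.22) and 0.23 (SE 0.22). The other tested probe sets of Camk2d, at -0.15 (SE 0.15) and -0.12 (SE 0.19), and of Camkv, at -0.30 (SE 0.29), had the opposite sign. Camk2b differed by 0.11 (SE 0.14) by its representative probe set. Its other one, M16112_at, gave 0.38 (SE 0.16), with an unadjusted limma p of 0.0284 and an adjusted p of 0.251.

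Of 14 genes reported as partners of the neuronal calcium sensors, 2 passed, against 2.17% of all genes tested. Itpr1, the inositol trisphosphate receptor that releases calcium from the endoplasmic reticulum, was 663 at the lowest, 755 at the median and 1132 at the highest in SNc and 301, 379 and 577 in VTA. All SNc arrays lay above all VTA arrays (log2 difference 0.93, SE 0.15, adjusted p = 0.00217 in limma). Of all probe sets tested, 0.858% had no overlap of the regions in either direction. Pi4ka, the alpha form of phosphatidylinositol 4-kinase, was 640, 820 and 903 in SNc and 415, 539 and 697 in VTA, with 7 SNc arrays above all VTA arrays (log2 difference 0.58, SE 0.14, adjusted p = 0.0322). Its 2 other tested probe sets gave 0.54 each and did not pass (adjusted p = 0.126 and 0.0971). The call of Pi4ka was lost on leaving out any of 10 of the 15 arrays (SNc 1 to SNc 5, VTA 1, VTA 3, VTA 5, VTA 6 or VTA 8), with adjusted p up to 0.0719. It was also lost without VTA 5 and VTA 8 together (adjusted p = 0.0815 in limma). Kcnd3, a potassium channel of the A type that calcium sensors regulate, differed by 0.33 (SE 0.15, adjusted p = 0.29), Adcy5, an adenylyl cyclase, by 0.32 (SE 0.17), and Gria2, an AMPA receptor subunit, by 0.30 (SE 0.17). The partners best known for Ncs1, named here after their values were seen, did not pass. Pi4kb, the beta form of the kinase, was 248 ± 65.2 in SNc and 264 ± 75.2 in VTA, a difference of -0.07 (SE 0.20, adjusted p = 0.902 in limma). Another of its probe sets, D84667_at, gave -0.43 (SE 0.20), with an unadjusted limma p of 0.0473 and an adjusted p of 0.313. The remaining tested ones gave -0.10 (SE 0.36) and 0.09 (SE 0.17) and did not pass. Drd2, a dopamine receptor, was 291 ± 71.3 in SNc and 287 ± 68.6 in VTA, a difference of 0.02 (SE 0.18, adjusted p = 0.977 in limma).

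**Figure D4:**
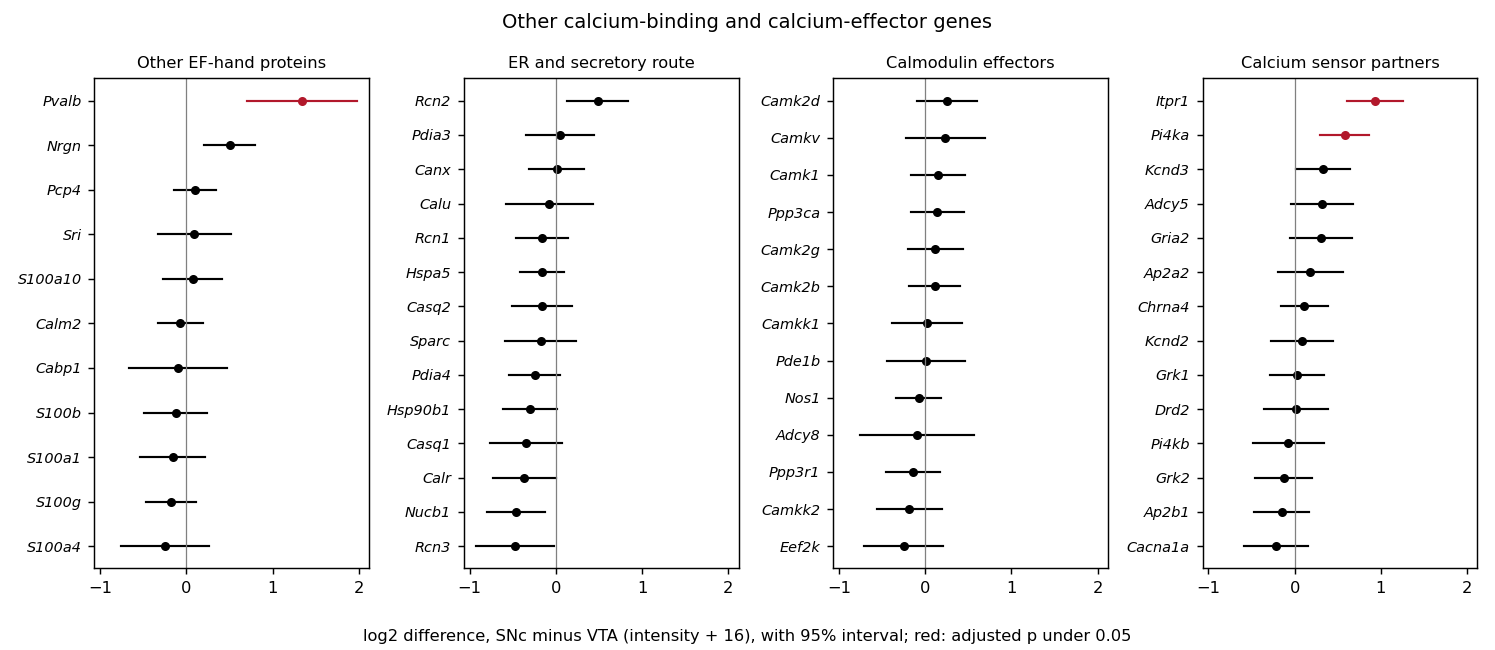
Log2 difference, SNc minus VTA (intensity + 16), with 95% intervals from limma, for the 52 tested genes of 4 calcium lists, each by the probe set whose mean log2 value was highest and sorted within its list. Pvalb, Itpr1 and Pi4ka are past an adjusted p of 0.05 and all 3 lie to the right, at 1.34, 0.93 and 0.58.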

How the data were processed

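The deposited table gave an intensity for every probe set on every array, on a linear scale. From its values, a scaling of each array to a trimmed mean of about 150.2 preceded deposit by the authors. For array software, background correction and RNA amplification, the sources used here give nothing. After 59 control probe sets were left out, log2(intensity + 16) was taken, which makes differences of dim probe sets smaller. Tests left out the dimmest 40% by mean value. The regions were then compared in limma (version 3.58.1, R version 4.3.3) by a linear model of region alone with eBayes moderation, two-sided, and p-values were adjusted over all 5244 probe sets with Benjamini-Hochberg. A list gene entered through its tested probe set with the highest mean log2(intensity + 16). Simulated data with known answers were used to test the code. The number of arrays limits the precision, and no detection calls were used.

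Identifiers of the 7 members all matched the rat gene table of assembly GRCr8, used for names only. Members and lists were chosen with earlier results of these data known. Planned for naming were all members, and the genes of each calcium list that passed and the next 3 by p. To these came 5 marker genes (Th, Slc6a3, Gad1, Gad2 and Pvalb) and the 3 genes most like Calb1 and Calb2. Outside that plan, Calr was named for its unadjusted limma p under 0.05, and Slc17a6 and Slc17a8 for lacking a probe set. Gch1 was named because it passed, and Slc17a7 and the dim microglia markers for their low signal. So were Pi4kb and Drd2, S100a1, Hspa5 and Camk2b for their other probe sets, and Pcp4 for what it binds. Slc6a3, which takes dopamine back up, had means of 7245 ± 603 (SNc) and 5782 ± 979 (VTA), with an adjusted p of 0.193 in limma. Alternatives were another scaling, offset, filter, variance model, array weights, replicate number as a block, exact tests, and leaving out arrays.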

Additional observations from a re-analysis of the deposited data

Results flagged for a closer look

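Among 22 groups of arrays looked at (10 probe sets and the ratio, in each region), 4 held an array that stood apart by Dixon's criterion, which chance alone meets in about 1 in 20 groups. In VTA, Calb2 was 1377 on VTA 4, against 630 to 872 on the others. In SNc, Hpcal1 was 84.4 on SNc 8, against 52.2 to 64.6 on the others, and Vsnl1 was 595 on the same array, against 946 to 1308. For the dim Ncs1 probe set L27421_at, VTA 5 lay at 20.8, against 0.795 to 3.02 on the others. The causes were not tested.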

How the results depend on the processing

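Calb1 passed as higher in VTA in all 27 alternatives fitted, with log2 differences from -1.08 to -0.87 and adjusted p from 0.000952 to 0.0362. Calb2 was higher in SNc and Vsnl1 too in all 27, and neither passed in any (adjusted p from 0.0619 to 0.309 for Calb2). Of the 6 tested members, 2 had an unadjusted exact permutation p under 0.05. The count was also 2 at an unadjusted limma p under 0.05, which 15.4% of all probe sets tested reached. After adjustment, 1 passed in limma. Hpcal4 changed sign with quantile normalization (0.0132), with median centring (0.0174) and without VTA 2 (leave-one-out range -0.129 to 0.00901), and never passed. The ratio difference ran from -1.73 to -1.42 over 20 alternatives; no other pair of probe sets existed for it. Of the calcium list genes, 3 passed. The count was 4 with median centring, an offset of 64, the mean of all probe sets or the representative by linear mean, 3 with quantile normalization, 2 with an offset of 1 or the fixed block, 1 without VTA 5 and VTA 8, and 1 to 3 on leaving out each array. The linear mean and the removal of VTA 5 and VTA 8 were chosen after seeing the data. The median of the EF-hand list was 0.0234 with median centring and ranged from -0.107 to 0.0243 on leaving out each array; that of the secretory route list was -0.0771 with median centring and -0.246 with an offset of 1; that of the calmodulin effectors was -0.00322 with the mean of all probe sets and ranged from -0.0362 to 0.104. The labels do not say what the replicate number marks, and it was not treated as a pairing: all 7 same-numbered pairs had positive correlations of deviations (0.044 to 0.254), 5 of the 7 over 0.1, and 3 were best matched to their own number. Whether the numbers share a source was not settled. With the number as a fixed block, 1 member passed and the ratio difference was -1.62; over all probe sets 99 passed (153 with it as a random block), and Pi4ka did not (adjusted p = 0.0619). Over all probe sets, the 104 calls became 59 with an offset of 1, 67 with the exact Wilcoxon test, 184 with array weights, and 56 to 115 on leaving out each array. The share of calls higher in SNc was 42.3%, and 64.4% with median centring. Pvalb did not pass with an offset of 1, no filter or the Wilcoxon test (adjusted p = 0.06, 0.0527 and 0.0809). No detection calls limit what the dim probe sets of Hpcal4 and Ncs1 show.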

Other observations

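The arrays numbered 4 had the highest Calb2 signal of their region, 2393 in SNc and 1377 in VTA. This was noticed after the values were seen, and the labels do not say whether a number marks anything shared between the regions.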
